A study of Homo sapiens with 2 samples.

Results

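Small ribosomal subunit protein mRNAs, the messages that encode the proteins of the 40S subunit, were examined for 5-methylcytosine (m5C) by RNA bisulfite sequencing (RNA BS-Seq). Members were the protein-coding genes of the GENCODE annotation on GRCh37 whose name begins with RPS and a digit, together with RPSA and FAU. S6 kinase genes and RPS19BP1 were left out. This rule gave 36 of 20163 protein-coding genes. The study compared MCF10A, a non-tumorigenic line of mammary epithelial cells, with MDA-MB-468, a breast cancer line. Both were untreated cells from a cell repository, grown in culture and represented by 1 poly(A)-selected library each, so there were no replicates. The methods of the study name a different medium for each line and the labels the same, so a part of the medium in any difference cannot be told apart from the line. Every interval given below is a 95% Wilson interval that covers counting error within 1 library only, and it is too narrow because 1 read can give counts at several cytosines.

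The 40S subunit binds mRNA and carries the decoding centre. Its head and its body with the platform are built from ribosomal RNA and a single copy of each small subunit protein. The mRNAs of these proteins are short and abundant, and most begin with a cytosine followed by a run of pyrimidines, the 5′ terminal oligopyrimidine (TOP) tract that places their translation under mTOR control. m5C is a methyl group on carbon 5 of cytosine, placed on RNA by NSUN family enzymes and DNMT2. Bisulfite turns unmodified cytosine into uracil and leaves m5C as cytosine. Paired cytosines can also escape conversion, and counts of this kind do not separate a methyl group from incomplete conversion.

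The sequences below surround the sites on which the results turn. They show which cytosines were called inside runs of neighbouring cytosines and which stood alone. Each is 29 nt of a member transcript, read 5′ to 3′ from GRCh37, with capitals for the cytosines called as m5C sites in at least 1 line. The first 5 sites stood alone, with no other called cytosine within 10 nt. They were RPS19 position 42373208 (chr19:42373194-42373222, plus strand, coding exon), RPS6 positions 19378862 (chr9:19378848-19378876, minus strand, coding exon) and 19378814 (chr9:19378800-19378828, minus strand, coding exon), RPS4X position 71492466 (chrX:71492452-71492480, minus strand, 3′UTR) and RPSA position 39450197 (chr3:39450183-39450211, plus strand, coding exon). The last 3 windows lie in short GC-rich stretches of RPS2 (chr16:2014574-2014602, minus strand, coding exon), RPS9 (chr19:54710494-54710522, plus strand, 3′UTR of an alternative transcript) and RPS16 (chr19:39926559-39926587, minus strand, 5′UTR).
RPS19 42373208: ccagccacttcagcCgaggctccaagagt
RPS6 19378862: gtttccccatgaagCagggtgtcttgacc
RPS6 19378814: tactgagtaaggggCattcctgttacaga
RPS4X 71492466: taaaaatattgtggCaggattaatagcat
RPSA 39450197: gtcagtgttatatcCtccaggaatactgg
RPS2 2014588: ggggggCCCgggggCcctggtggCCCtgg
RPS9 54710508: ggggCagcctcttgCCCCaatagcccagc
RPS16 39926573: ttttccggttgcggCgcCgcgcggtgagg

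The deposited files held 3146911 cytosines for MCF10A and 3489803 for MDA-MB-468. Of these, 1584002 and 1271253 had at least 10 counts and lay on exons or on mitochondrial RNA, and their median coverage was 18 in both lines. Unconverted counts made up 1.99% of all counts at these kept sites in MCF10A cells and 1.81% in MDA-MB-468 cells, and these shares served as the background. Of 9 epithelial marker genes, 6 had kept sites in MCF10A cells and 8 in MDA-MB-468 cells. CDH1, EPCAM and KRT14 had none in MCF10A, and KRT14 had none in MDA-MB-468. Of 6 markers of other cell types, none had kept sites in MCF10A, and only COL1A1 had any in MDA-MB-468.

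The members were among the better covered mRNAs. MCF10A had 2327 member sites with 606868 counts and a median coverage of 84, and MDA-MB-468 had 1775 member sites with 248376 counts and a median coverage of 40. Among all called sites with a coverage of exactly 100, the lowest unconverted count was 9 in the MCF10A library and 10 in that of MDA-MB-468. At a coverage of exactly 10 it was 4 in each line. These are the lowest counts seen among calls, not thresholds. Kept sites lay on 29 genes in MCF10A and on 27 in MDA-MB-468. In 8 genes in MCF10A cells and 5 in MDA-MB-468 cells they covered over 50% of the cytosines of the canonical transcript. RPS16, a head protein, was the most fully covered, with 124 of 163 cytosines in MCF10A cells and 116 in MDA-MB-468 cells.

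Genes with no kept site in either line included RPS10, RPS26, RPS28, RPS3A, RPS4Y1 and RPS4Y2. Ribosomal protein genes have many processed pseudogenes, and reads that fit several places are commonly lost. With cytosine read as thymine, the 51 nt window around 78.7% of the cytosines of RPS3A occurred elsewhere in the genome, as did 52.4% for RPS10, 48.9% for RPS26, 23.4% for RPS28, 1.2% for RPS4Y1 and 1.68% for RPS4Y2. Over the 29 genes with kept sites the share was 25.3%. Within the members as a whole, 13.3% of repeated and 14.2% of other cytosines were kept in MCF10A, and 10.4% and 10.7% in MDA-MB-468. These shares count the cytosines of every annotated basic transcript, whether or not it had reads. The loss of reads at repeats was not tested. All kept sites of the readthrough gene RPS10-NUDT3, 123 for MCF10A and 94 for MDA-MB-468, lay on exons of another gene as well, so its values are not those of RPS10.

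Pooled over all members, 1.62% of counts were unconverted in MCF10A (1.59% to 1.65%) and 1.70% in MDA-MB-468 (1.65% to 1.75%). Both values were below the background of their line. Over all mRNA sites the rate was 1.94% in MCF10A cells and 1.72% in MDA-MB-468 cells, and over the mRNAs of the large subunit it was 1.5% and 1.51%. At the 1690 member sites kept in both lines the rates were 1.59% and 1.70%, against 2.05% and 1.72% over the mRNA sites kept in both. The mRNAs of the head proteins had 1.60% in MCF10A cells and 1.75% in MDA-MB-468 cells, and those of the body and platform proteins had 1.63% and 1.65%.

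Of the 21 genes with at least 1000 counts in each line, the 5 with the highest rates in MCF10A were RPS20 with 3.07% (2.79% to 3.38%), RPS2 with 2.56%, RPS24 with 2.45%, RPS23 with 2.27% and RPS10-NUDT3 with 1.98%. RPS2 lines the mRNA entry site and RPS23 reaches into the decoding centre. In MDA-MB-468 the 4 highest were RPS20 with 7.02% (6.19% to 7.96%), RPS23 with 5.25% (4.35% to 6.32%), RPS2 with 3.51% and RPSA with 2.30%. Among these 21 genes RPS20 had the highest rate in each library, and RPS23 and RPS2 were among the next. Genes with fewer counts could be higher, such as RPS15A with 5.21% in MCF10A, which had 670 counts in MDA-MB-468.

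The lowest rate in MCF10A was that of RPS16 with 1.13% (1.05% to 1.22%), and the low rates included RPS14 with 1.27%, RPS21 with 1.33% and RPS15 with 1.37%. In MDA-MB-468 the lowest were RPS10-NUDT3 with 1.07%, RPS15 with 1.11%, RPS4X with 1.21%, RPS3 with 1.25% and RPS14 with 1.26%. RPS14, a platform protein whose gene is lost in 5q- syndrome, and RPS15, a head protein, were low in both. Neighbouring genes in this lower range had overlapping intervals. At shared sites, 11 of these 21 genes had the higher rate in MDA-MB-468 and 10 in MCF10A, with a median difference of 0.00515 percentage points. The intervals were apart for 5 genes higher and 1 gene lower in MDA-MB-468.

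**Figure D1:**
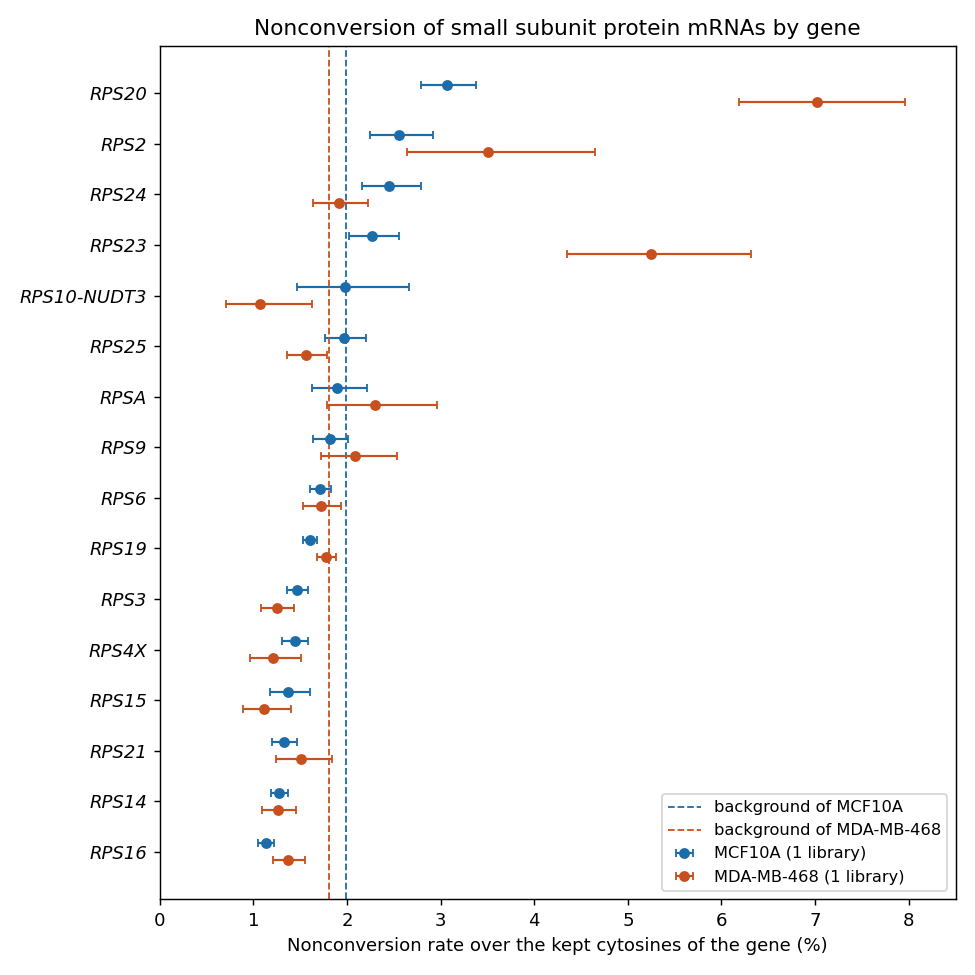
Nonconversion rate (x axis, percent) of the 16 member genes named in the text that had at least 1000 counts in each line, in MCF10A and MDA-MB-468. Points are pooled rates of 1 library, bars are 95% Wilson intervals for counting error only, and dashed lines mark the background of each line (1.99% and 1.81%). Among the genes shown, RPS20 had the highest rate in each line, 3.07% and 7.02%.

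The annotated 5′ end of the canonical transcript was a cytosine in 28 of the 36 genes, and in 26 it was a cytosine followed by at least 4 further pyrimidines, as in a TOP tract. The tract itself was nearly unread. Of 135 cytosines in the first 10 bases of these transcripts, 9 were kept in the MCF10A library and 5 in that of MDA-MB-468, and none was called. From base 11 on, the rate declined along the transcript in each line. At cytosines kept in both lines, bases 21 to 50 had 2.11% unconverted in MCF10A (1.92% to 2.32%) and 3.65% in MDA-MB-468 (3.15% to 4.23%). Bases 51 to 100 had 1.75% and 2.39%, and bases from 201 on had 1.51% and 1.55%. The shared sites of bases 51 to 100 held 9 calls in MCF10A with or without RPS20, and 10 in MDA-MB-468, of which 2 were left without RPS20. Without RPS20, bases 21 to 50 had 1.89% in MCF10A cells and 3.20% in MDA-MB-468 cells, and bases 51 to 100 had 1.68% and 1.95%. From base 101 on, the counting intervals of the lines overlapped.

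**Figure D2:**
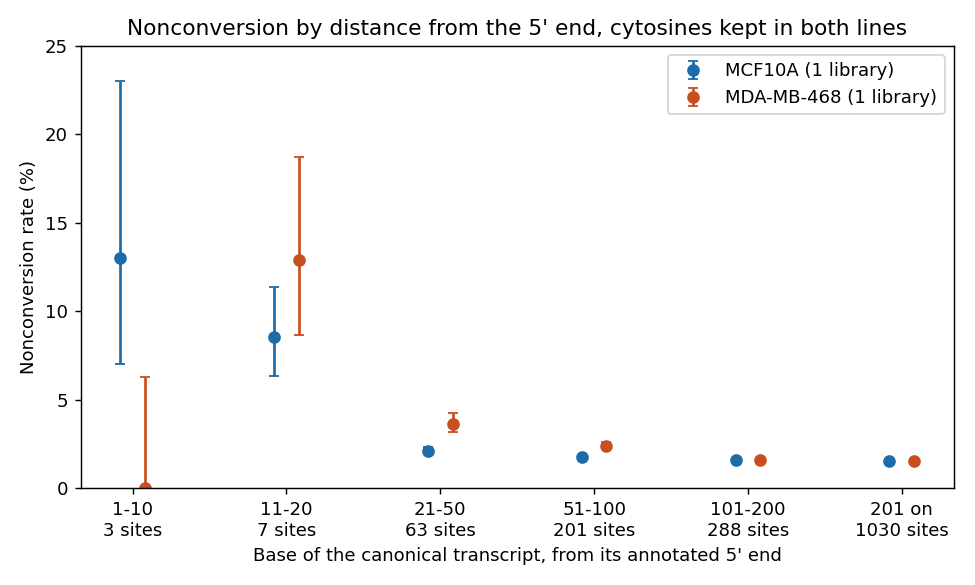
Nonconversion rate (y axis, percent) over the member cytosines kept in both lines, by base of the canonical transcript counted from its annotated 5′ end (x axis, with the number of sites). Points are pooled rates of 1 library per line and bars are 95% Wilson intervals. The rate was 8.52% in MCF10A cells and 12.9% in MDA-MB-468 cells at bases 11 to 20, and 1.51% and 1.55% from base 201 on.

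This 5′ difference between the libraries varied from gene to gene. Of 8 genes with at least 100 counts of shared sites in the 5′UTR in each line, 5 had the higher rate in MDA-MB-468 and 3 in MCF10A, and for 4 the intervals were apart. In RPS20 the 5′UTR had 3.42% for MCF10A and 10% for MDA-MB-468, and the ratio was higher in MDA-MB-468 at 33 of 34 sites. In RPS16, whose tail reaches the peptidyl site, it had 1.56% and 3.39%, with all 13 sites higher in MDA-MB-468. RPS25, a head protein needed by some viral internal ribosome entry sites, went the other way, with 8.21% (5.94% to 11.3%) in MCF10A and 0.866% (0.238% to 3.10%) in MDA-MB-468, and 1 of 14 sites was higher in MDA-MB-468. Sites of 1 5′UTR share reads and are not replicates. The coding sequences of RPS16 and RPS20 were not higher in this way, with 1.07% and 1.08% in RPS16, and 2.57% and 1.36% in RPS20, in MCF10A and MDA-MB-468 respectively. Over the 5′UTR sites of all mRNAs the rate was 2.70% in MCF10A cells and 2.56% in MDA-MB-468 cells. This rate takes the 5′UTR of any annotated transcript and all kept sites, not only shared ones. Measured in that way, the members had 1.84% and 2.52%.

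A kept site was called an m5C site when its unconverted counts exceeded the background of its line in a one-sided Fisher's exact test with Benjamini-Hochberg adjustment (FDR under 0.05) over all kept sites. In MCF10A 29 member sites were called, 1.25% of the member sites, where 0.96% of all kept sites were called. In MDA-MB-468 31 member sites were called, 1.75%, where 0.84% of all kept sites were called. Since the members were better covered, low ratios could be called in them that could not be called at most sites. The median ratio of member calls was 12.1% in MCF10A cells and 18.8% in MDA-MB-468 cells, against 33.3% and 32.3% over all calls. The calls lay on 9 genes in each line, 9 of 29 for MCF10A and 9 of 27 for MDA-MB-468, where 21.1% and 16.9% of all protein-coding genes with kept sites had a call. The mRNAs of head proteins held 6 calls among 937 sites in MCF10A cells and 20 among 659 in MDA-MB-468 cells. Those of body and platform proteins held 23 among 1217 and 11 among 1011, and paralogs and the readthrough gene held none. Single genes made much of this split. RPS20 gave 14 of the 20 head calls in MDA-MB-468, and RPS2 and RPS9 gave 9 and 6 of the 23 in MCF10A.

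Most calls were of low ratio. A methylation ratio of at least 20%, unconverted over all counts of the site, was reached by 4 calls in MCF10A cells and 13 in MDA-MB-468 cells. In MCF10A these were RPSA position 39450197 with 71.2%, RPS2 position 2014563 with 33.3%, RPS9 position 54711428 with 31.2% and RPS9 position 54710498 with 23.6%. In MDA-MB-468 the coverage of these 13 reached from 10 to 32. The 6 best covered were 4 sites of RPS9, position 2014594 of RPS2 and position 56986965 of RPS20 (22.7%). Among member sites with a coverage of at least 100, the median ratio was 1.45% for MCF10A and 1.18% for MDA-MB-468, and 7 of 1076 and 2 of 545 sites reached 10%. Those 2 in MDA-MB-468 were RPS19 position 42373208 and RPS6 position 19378814.

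RPS19, a head protein needed for maturation of the 18S ribosomal RNA and mutated in Diamond-Blackfan anaemia, held the best supported call. At position 42373208 (coding base 280, the first base of its codon, base 315 of the transcript) 289 of 3171 counts were unconverted in MCF10A, a ratio of 9.11% (8.16% to 10.2%). In MDA-MB-468 400 of 2436 counts were unconverted, 16.4% (15% to 17.9%). The site had the highest coverage of all member sites in each line, and it was called in each, with an adjusted Fisher's exact p of 8.22e-95 in MCF10A. Its 8 neighbouring cytosines within 10 nt had a pooled rate of 1.16% in MCF10A cells and 1.09% in MDA-MB-468 cells, and none of them exceeded 1.70%. The position was unpaired in the predicted structure of the transcript, and its 51 nt window occurred nowhere else in the genome.

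The other RPS19 calls were lower. Position 42373137 had 4.54% of 529 counts in MCF10A cells and 5.14% of 389 in MDA-MB-468 cells and was called in both, at a paired base whose window had 1 further match in the genome. Position 42365220 was called in MCF10A with 4.68% and had 3.51% in MDA-MB-468. Position 42365228 was called in MDA-MB-468 with 6.68% (4.63% to 9.55%) and had 2.36% (1.41% to 3.92%) in MCF10A. These 3 sites count as 5′UTR because of a shorter alternative coding sequence, and they are coding bases of the canonical transcript.

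**Figure D3:**
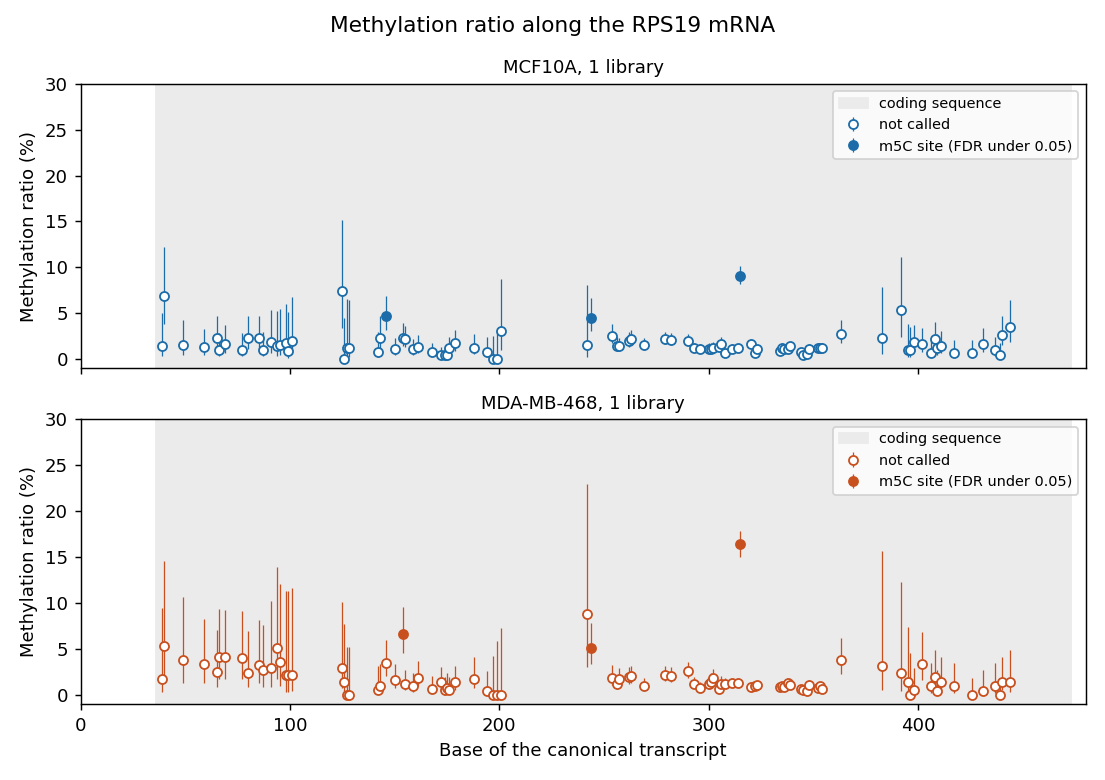
Methylation ratio (y axis, percent) of the kept cytosines of RPS19 by base of the canonical transcript (x axis), in 1 library of MCF10A (top) and 1 of MDA-MB-468 (bottom). Filled points were called m5C sites, bars are 95% Wilson intervals and shading marks the coding sequence. Base 315 stands above its neighbours with 9.11% for MCF10A and 16.4% for MDA-MB-468.

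RPS20, a head protein, held 3 calls in MCF10A cells and 14 in MDA-MB-468 cells, all in its 5′UTR of 123 nt. In MCF10A the calls were at bases 15, 17 and 29 of the transcript, with 19.2% of 52, 7.30% of 137 and 5.28% of 303 counts. In MDA-MB-468 they ran from base 29 to base 116, with ratios from 7.89% to 36.4%. Base 29 was called in both lines, with 9.30% of 86 counts in MDA-MB-468. In this 5′UTR, the highest ratio in MCF10A downstream of base 29 was 5.00%, at base 109.

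The counts behind the RPS20 calls were few. Over the 34 kept 5′UTR sites of MDA-MB-468, coverage ranged from 11 to 114 while unconverted counts ranged only from 2 to 10. The 2 highest ratios, 36.4% at bases 114 and 116, rested on 4 of 11 counts each. Further upstream, base 78 had 9 of 50 and base 68 had 10 of 85 unconverted counts. From base 44 on, the ratio was thus higher towards the coding sequence as coverage fell, while the number of unconverted counts at the called sites stayed between 4 and 10. Whether the same few reads gave them cannot be read from counts per site. In the coding sequence of RPS20 no site was called in either line, and the pooled rate was 2.57% in MCF10A cells and 1.36% in MDA-MB-468 cells.

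**Figure D4:**
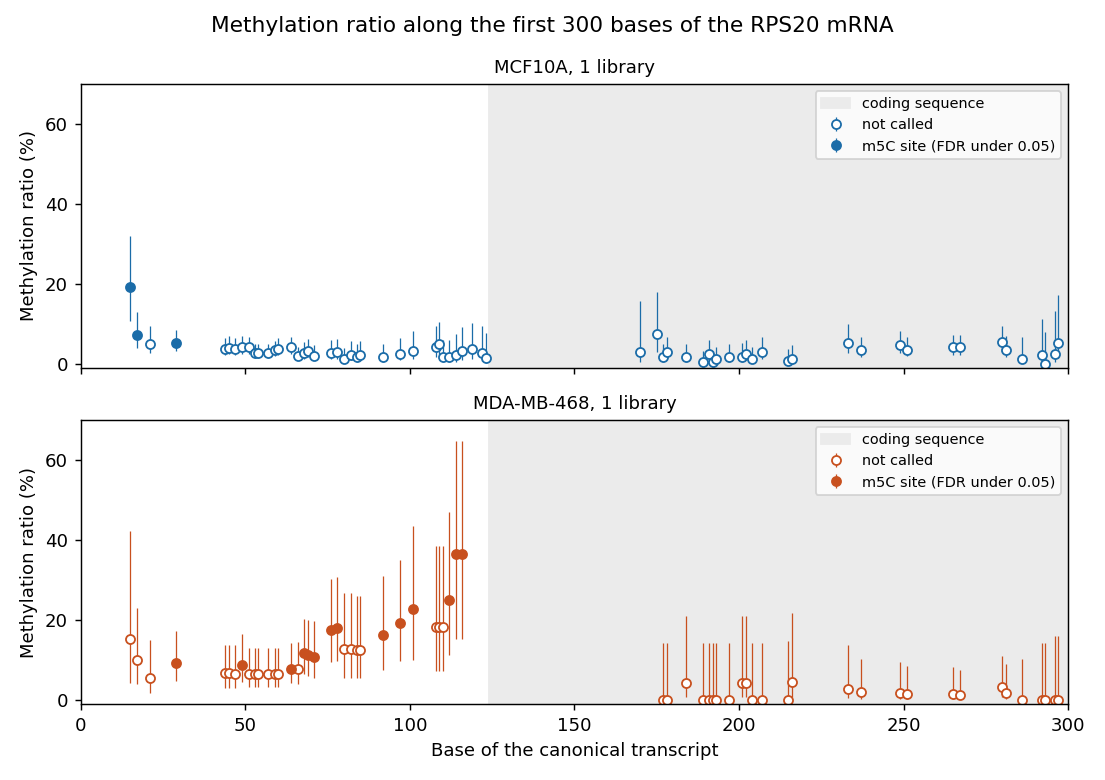
Methylation ratio (y axis, percent) of the kept cytosines in the first 300 bases of the RPS20 transcript (x axis), in 1 library of MCF10A (top) and 1 of MDA-MB-468 (bottom). Filled points were called m5C sites, bars are 95% Wilson intervals and shading marks the coding sequence. In MDA-MB-468 14 sites of the 5′UTR were called, up to 36.4%, and none in the coding sequence.

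RPS16 had calls in MDA-MB-468 close to its annotated 5′ end, at 4 and 7 nt from the nearest annotated start, with 4 of 10 counts (40%) at position 39926573 and 8 of 41 (19.5%) at position 39926570, where MCF10A had 8.11% of 37 and 5.93% of 118. Both bases were paired in the predicted structure.

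RPS6, the 40S protein phosphorylated by S6 kinases downstream of mTOR, held the best covered calls among body and platform proteins. At position 19378862 (coding base 193) 127 of 1908 counts were unconverted in MCF10A, 6.66% (5.62% to 7.86%), and 55 of 837 in MDA-MB-468, 6.57% (5.08% to 8.46%). The difference was -0.0851 percentage points (Newcombe interval -2.00 to 2.06), while the 5 neighbours within 10 nt had 1.10% for MCF10A and 1.37% for MDA-MB-468. This cytosine stood above its neighbours in each library. At position 19378814 (coding base 241) the ratio was 3.94% of 762 counts in MCF10A cells and 12% of 125 in MDA-MB-468 cells, and its 2 neighbours had 0.35% and 0%. Positions 19378460 and 19378465 were called in MCF10A only, with 6.98% of 172 and 5.99% of 267, and the neighbours of the first had 4.62%. In MDA-MB-468 they had 10% of 20 and 6.06% of 33.

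RPS2 held 9 calls in MCF10A between coding bases 31 and 64, with ratios from 11.6% to 33.3% at coverages of 51 to 140. Of these, positions 2014563 and 2014594 were called in MDA-MB-468 too, with 4 of 11 (36.4%) and 7 of 29 (24.1%) counts. Over the 9 kept cytosines from 2014577 to 2014596 the pooled ratio was 11.4% in MCF10A (9.67% to 13.3%) and 10.5% in MDA-MB-468 (7.35% to 14.9%), intervals that overlap, although the shallower library had fewer calls. All 9 bases were unpaired in the predicted structure. The windows of positions 2014563 and 2014564 had 5 further matches each in the genome, and those of the other 7 had none. The rest of RPS2 was low, and the median ratio over its 71 kept coding sites was 0.743% in MCF10A.

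RPS9, a body protein at the mRNA entry site, held 6 calls in MCF10A cells and 5 in MDA-MB-468 cells. Of these, 5 positions from 54710498 to 54710511 were called in both, with ratios from 16.1% to 23.6% in MCF10A and from 18.8% to 28.1% in MDA-MB-468. The 8 kept cytosines of this stretch had a pooled ratio of 11.9% (9.71% to 14.6%) and 14.4% (10.5% to 19.4%). The stretch is outside the exons of the canonical transcript, and all 5 called bases were paired in the predicted structure of the transcript that holds them. Position 54711428, coding base 570, was called in MCF10A alone with 10 of 32 counts (31.2%, 18.0% to 48.6%), against 2 of 22 in MDA-MB-468 (9.09%, 2.53% to 27.8%).

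RPSA, also known as the laminin receptor precursor, held the highest ratio of all member calls. At position 39450197, coding base 234, 37 of 52 counts were unconverted in MCF10A, 71.2% (57.7% to 81.7%), and its 3 neighbours within 10 nt had none. In MDA-MB-468 the deposited counts were 6 of 9, a ratio of 66.7% at a coverage below the minimum of 10, so no call was made there. The cytosine is followed by TCCA, the sequence context known for NSUN6. It was the only called member site in this context. The context is held by 8 of the 2327 member sites in MCF10A (0.344%) and by 0.620% of all mRNA sites. Of the 9573 mRNA sites with this context in the MCF10A library, 60 were called (0.627%). MDA-MB-468 had 7 member sites with it and no call among them, where 0.481% of such mRNA sites were called. Member sites with this context were too few for a comparison of these shares. The 51 nt window of RPSA position 39450197 has 14 further matches in the genome once cytosine is read as thymine. The gene of origin of these reads was not tested.

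RPS4X, the X-linked copy of a body protein, had a single call at position 71492466 in the 3′UTR in both lines, with 20 of 390 counts in MCF10A (5.13%, 3.34% to 7.79%) and 9 of 83 in MDA-MB-468 (10.8%, 5.81% to 19.3%). RPS24, another gene of Diamond-Blackfan anaemia, was called in MCF10A at coding position 79796988 with 4.31% of 835 counts, and the same position had 2.46% of 936 in MDA-MB-468. RPS15A was called in MDA-MB-468 with 4 of 10 counts at position 18800373, which also lies on an exon of another gene.

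The calls were also counted by feature. In MCF10A 5 lay in the 5′UTR, 18 in the coding sequence and 6 in the 3′UTR, where 66.3% of the member sites were coding. In MDA-MB-468 the numbers were 19, 6 and 6, and RPS20 alone gave 14 of the 19. Relative to covered sites, 1.32% of member 5′UTR sites were called for MCF10A and 6.93% for MDA-MB-468, against 2.24% and 1.95% of 5′UTR sites over all mRNAs. For coding sites the shares were 1.17% and 0.471%, against 0.615% and 0.551% over all mRNAs. For 3′UTR sites they were 1.48% and 2.64%, against 0.837% and 0.739%. Within 10 nt of another call lay 62.1% of member calls in MCF10A cells and 61.3% in MDA-MB-468 cells, against 86.2% and 86.8% of all nuclear calls. The predicted structures left 23 of 29 and 22 of 31 calls unpaired, where 85.6% and 85.2% of all member sites were unpaired. By codon position in the canonical coding sequence, the pooled rate was 1.72%, 1.5% and 1.52% at codon bases 1, 2 and 3 in MCF10A, and 1.95%, 1.53% and 1.39% in MDA-MB-468. RPS19 position 42373208 lies at codon base 1 and alone gave 400 of the 1408 unconverted counts there in MDA-MB-468.

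By trinucleotide, the highest rates over member sites were in GCA in MCF10A, with 2.45% unconverted and 6 of 181 sites called (3.31%), where GCA sites over all mRNAs had 2.27% unconverted and 0.582% called. In MDA-MB-468 the highest rate was in CCG, with 3.29% and 5 of 100 called (5%), where all mRNAs had 2.33% and 1.92%. RPS19 position 42373208 lies in CCG and gave 400 of the 637 unconverted counts, and without it the CCG rate was 1.4% and that of GCA, 2.37%, was the highest. Over all mRNAs CCG had the highest rate in both lines. The lowest were TCC in MCF10A, with 1.13%, and CCT in MDA-MB-468, with 1.03%. No TCC or TCT site of a member was called in either line. Over all mRNAs, 0.483% of TCC and 0.284% of TCT sites were called in MCF10A, and 0.387% and 0.212% in MDA-MB-468. With 142 TCC and 129 TCT member sites in MCF10A, and 100 and 95 in MDA-MB-468, the absence of calls cannot be told apart from these shares. A GGG at bases 2 to 4 or 3 to 5 after the cytosine was held by 102 member sites in MCF10A, 4.38% of them, against 5.24% of all mRNA sites. Of these 102, 8 were called (7.84%), against 1.90% over all mRNAs, with 5 on RPS2, 2 on RPS6 and 1 on RPS19. In MDA-MB-468 3 of 64 were called (4.69%), against 1.58% over all mRNAs. A match is a description of the sequence and names no enzyme.

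Ratios of the 2 libraries were compared at the 1690 member sites kept in both by Fisher's exact test (two-sided, site by site), adjusted by the Benjamini-Hochberg method over all 812729 shared sites. This test compares 2 libraries, not conditions. It called 1 member site, RPS19 position 42373208, which was higher in MDA-MB-468 by 7.31 percentage points (Newcombe interval 5.54 to 9.10, adjusted p 1.94e-12). Of all shared sites, 0.0202% were called higher and 0.0691% lower in MDA-MB-468, and no member site was called lower. At an unadjusted p under 0.05 there were 57 member sites, 50 higher and 7 lower in MDA-MB-468. They were 3.37% of the member sites, against 1.14% of all shared sites, and the members were better covered. Counted without regard to p, the ratio was higher in MDA-MB-468 at 632 of the 1690, lower at 797 and equal at 261. At such low rates the shallower MDA-MB-468 library (median coverage 44, against 164) made a lower ratio harder to detect than a higher one. The split of the 57 therefore does not show that member sites lean higher in MDA-MB-468.

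The sites next in order of p did not pass. The first was RPS16 position 39926537, with 1.17% of 1371 counts for MCF10A and 4.70% of 319 for MDA-MB-468 (adjusted p 0.152). RPS20 positions 56986990 and 56986988 had 2.65% and 2.96% in MCF10A, and 17.6% and 18.0% in MDA-MB-468 cells (adjusted p 0.312 and 0.352). RPS6 position 19378814 followed and differed by 8.06 points (Newcombe interval 3.19 to 15, adjusted p 0.444). With the test limited to sites called in at least 1 line, 14 member sites passed, all higher in MDA-MB-468, among them 10 on RPS20, 2 on RPS19 and 1 on RPS6. That choice of sites used the same counts as the test. Of the 13 sites called in both lines, 11 had the higher ratio in MDA-MB-468, and at 3 the interval of the difference was above 0. A call in the shallower MDA-MB-468 library took a higher ratio, so this choice of sites favours that direction. In addition, 5 of the 13 lie in 1 stretch of RPS9 and can share reads.

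**Figure D5:**
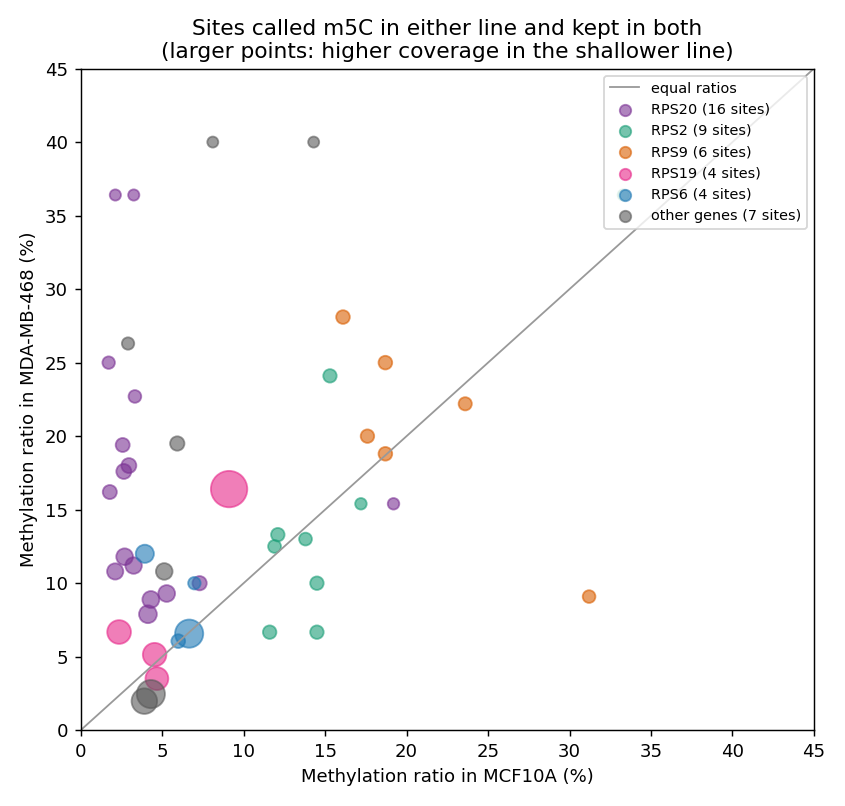
Methylation ratio in MCF10A (x axis, percent) against MDA-MB-468 (y axis, percent) at the 46 member sites called in either line and kept in both, 1 library each. Point area grows with the lower of both coverages, colours mark genes and the line marks equal ratios. All RPS20 sites but 1 lie along the left side, at up to 7.30% in MCF10A, RPS9 position 54711428 lies far below the line at 31.2% and 9.09%, and the large RPS19 point at 9.11% and 16.4% was the only one called different over all shared sites.

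RPS3, a head protein at the mRNA entry that also takes part in DNA repair, is a gene the study names for the comparison of these lines. No RPS3 site was called in either line. Its 105 shared sites had a pooled rate of 1.46% in MCF10A (1.36% to 1.57%) and 1.25% in MDA-MB-468 (1.08% to 1.43%), with 60 sites lower and 28 higher in MDA-MB-468. In Fisher's exact test between the libraries, 5 of these sites had an unadjusted p under 0.05. The smallest p at a single site was 0.0229 (adjusted p 1), at position 75113396, with 0.513% of 195 counts in MCF10A cells and 5.26% of 76 in MDA-MB-468 cells.

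Of 12 other genes of 40S assembly and of TOP mRNA control, 11 had kept sites in MCF10A (3 of them with calls) and 8 in MDA-MB-468 (2 with calls). LARP1, which binds TOP mRNAs, had 39 calls among 1196 sites in MCF10A and 17 among 959 in MDA-MB-468. RACK1, a protein of the 40S head whose name keeps it outside the members, had 10 among 304 and 1 among 309. EMG1, a methyltransferase of 18S ribosomal RNA, had 3 among 81 in MCF10A and none among 40 in MDA-MB-468. BYSL, LTV1, NOB1, RIOK1 and TSR1 had kept sites in both lines and no call. DIMT1, RIOK2 and RIOK3 had kept sites in MCF10A only, without a call, and PNO1 had none in either line.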

How the data were processed

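RNA BS-Seq was analysed for 1 library of MCF10A and 1 of MDA-MB-468. Per the study's methods, the authors trimmed the reads with Trim Galore, aligned them to hg19 with MeRanGs and called cytosines with MeRanCall of MeRanTK. The deposited values are raw counts of unconverted and converted reads per cytosine, without normalization. They start at a coverage of 5, and neither the exon filter nor the structure filter had been applied. All 2039213 nuclear kept positions fell on a cytosine of GRCh37.

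The members and all gene lists were chosen with earlier results of these data known. Cytosines with 10 or more counts on same-strand exons of GENCODE release 44 basic transcripts, or on the mitochondrial chromosome, were kept. Where transcripts overlapped, the 5′UTR took precedence over the coding sequence and that over the 3′UTR. Genes named were RPS3, those with most calls, the 5 highest and 5 lowest rates among genes with at least 1000 counts in each line, and those without kept sites. Some members that this rule names are not reported here. Sites named were the 6 best covered per line at a ratio of at least 0.2 and the 8 largest called differences. Further named sites, the splits by transcript block, codon position and distance from the 5′ end, and the rate by trinucleotide without the best covered site were chosen after values were seen. Member transcripts were folded with RNAfold of ViennaRNA 2.7.2 (maximum expected accuracy, 70 degrees, pairing distance 150 nt, gamma 0.1). Repeats were counted as other genomic matches of the 51 nt window with cytosine read as thymine. QNB of the methods was not used, and Fisher's exact test took its place. Alternatives covered background, test, coverage minimum, minimum ratio, region order, structure, repeats, shared exons and the sites compared. Scripts ran on Python 3.11.15, scipy 1.17.1 and pandas 2.3.3 and were tested on simulated counts.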

Additional observations from a re-analysis of the deposited data

How the results depend on the processing

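No paired analysis was possible because each line had 1 library, and leaving out a replicate was not possible for the same reason. The pooled nonconversion rate ranged from 1.59% to 1.64% in MCF10A and from 1.68% to 1.74% in MDA-MB-468 over the settings tried. A minimum ratio of 0.2 left 4 m5C sites in MCF10A cells and 13 in MDA-MB-468 cells, and under the other settings 23 to 32 and 22 to 31 were called. With the coding sequence ahead of the 5′UTR, 3 calls in MCF10A lay in the 5′UTR. The number of member sites that differed between the libraries was 14 with the test limited to sites called in a line and 8 with a z test, and 1 under the other settings. For single named sites, 107 of 110 recomputed tests kept their side of the threshold. With the background taken over every deposited site with 10 or more counts, the adjusted p in MCF10A became 0.0546 for RPS19 position 42373137, 0.089 for RPS20 position 56987037 and 0.106 for RPS6 position 19378814. Depth limits low ratios most in MDA-MB-468, where the median member coverage was 40.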
